A study of Mus musculus with 6 samples.

Results

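A set of 10 genes that mark the interneurons of the forebrain was followed in the striatum of 6-week-old mouse offspring: the peptide genes Sst, Npy, Cck, Vip and Cort, the calcium-binding protein genes Pvalb, Calb1 and Calb2, the nitric oxide synthase gene Nos1 and the transcription factor gene Lhx6. They were taken by gene symbol, and all 10 of 10 were found among the 45777 genes of the authors' table. RNA was sequenced from the outbred ICR strain, with 3 offspring of saline-treated sires and 3 offspring of methylphenidate-treated sires. The sires were 6 weeks old and received 10 mL/kg saline or 15 mg/kg methylphenidate under the skin on each of 21 days, and were then mated with untreated females, so no offspring was itself dosed. Methylphenidate blocks the dopamine and noradrenaline transporters. The labels list 2 females and 1 male per group and do not give the number of sires or litters, so offspring of a group may be related. The p-values below speak only to the spread among these 6 animals. The libraries are called by group and by the number in their column name, which is 3, 4 or 5 after a saline-treated sire and 2, 4 or 6 after a methylphenidate-treated one. Values of single libraries are given in that order.

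Interneurons are a small minority of striatal neurons, most of which are medium spiny projection neurons. Several classes are separated by the genes studied here: cells that make somatostatin, neuropeptide Y and neuronal nitric oxide synthase together, fast-spiking cells that contain parvalbumin, and cells that contain calretinin. Lhx6 is a LIM homeobox factor of interneurons born in the medial ganglionic eminence, which gives rise to the somatostatin and parvalbumin classes. Cholecystokinin and vasoactive intestinal polypeptide are peptides of cortical neurons above all, and calbindin is made by many medium spiny neurons as well as by interneurons. In bulk tissue, fewer cells of a type and less RNA per cell cannot be told apart.

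Somatostatin is the classic gene with a cAMP response element (CRE), the site at which the factor CREB binds. The promoter windows of the members, from 250 bases before to 50 bases after the annotated start, were therefore searched on both strands for the full element TGACGTCA and for its half-site TGACG, which reads CGTCA on the other strand and which the full element holds once on each strand, overlapping. RefSeq windows of GRCm38.p6 matched 8 of the 10 genes, all but Calb1 and Calb2. Every member with a match is shown, regardless of its fold change below. Each stretch is 30 bases, 5′ to 3′ on the gene's strand, with the match in capitals.
Sst, chr16:23890874-23890903, minus strand, bases -59 to -30 from the start: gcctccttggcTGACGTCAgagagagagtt
Cck, chr9:121495724-121495753, minus strand, bases -59 to -30: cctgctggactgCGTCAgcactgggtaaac
Vip, chr10:5639127-5639156, plus strand, bases -91 to -62: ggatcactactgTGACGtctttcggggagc
Cort, chr4:149126764-149126793, minus strand, bases -30 to -1: ctccggcttgtgCGTCAccgcgtgagtgtg
Nos1, chr5:117866697-117866726, plus strand, bases -142 to -113: aaaccagccatgCGTCAggcttggcttcag

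The full element was found in the Sst window alone among the 8 genes, at bases -48 to -41, and in 1.79% of all 32851 promoter windows. The starts used for Sst, Vip and Lhx6, and 1 of the 2 used for Pvalb, lie inside the annotated extents of these genes. The printed Sst stretch overlaps an annotated Sst exon. A half-site stood in the windows of Sst, Cck, Vip, Cort and Nos1 and in 20.8% of all windows. The windows of Npy, Pvalb and Lhx6 held neither sequence. A match describes the letters and is not evidence of binding.

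Total counts were 31360042 to 38844724 per library. Along the first principal component, with 28.3% of the variance, saline-sired libraries 3 and 4 lay away from the other 4. Choroid plexus markers summed to 33.4 to 2114 CPM (read counts scaled to library size) in the saline-sired libraries, highest in library 3, and to 38.6 to 89.0 CPM in the methylphenidate-sired ones. Of the 10 choroid plexus markers 9 passed the filter, all with negative fold changes, 8 at an unadjusted p under 0.05 and 0 called by edgeR or DESeq2. The groups overlapped in each of the 9, and 9.02% of all genes had an unadjusted p under 0.05.

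Per kilobase of transcript, the scale on which genes can be set beside each other, Sst stood highest of the members. Its level was 169 to 203 CPM per kilobase over the 6 libraries, with a median of 193. Cck (median 108, from 36.5 to 130) and Npy (median 105, from 97.1 to 116) followed, and their ranges overlapped. Calb1 had a median of 46.3 CPM per kilobase and Pvalb 30.2, again with overlapping ranges (37.1 to 52.4 and 12.8 to 41.2). Nos1 (median 9.37, from 8.79 to 9.81) and Lhx6 (median 6.62, from 6.18 to 6.77) did not overlap each other, whereas Vip (median 5.14, from 1.66 to 7.82) overlapped both Lhx6 and Calb2 (median 3.06, from 2.19 to 4.61). Cort was lowest, with a median of 1.03 CPM per kilobase and a range of 0.557 to 1.80. The order of Sst at the top and Cort at the bottom held in each of the 6 libraries.

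**Figure D1:**
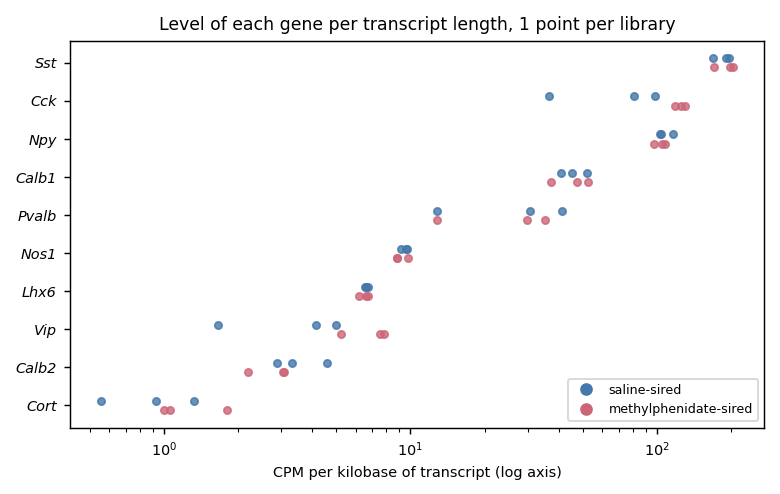
Level of each gene in CPM per kilobase of transcript on a log axis, with 1 point per library (blue, saline-sired; red, methylphenidate-sired). Sst lies above the other genes at 169 to 203, and the points of Cck, Vip, Pvalb and Cort spread more widely than those of Nos1 and Lhx6.

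The comparison of the groups asked whether transcripts of interneurons differ in the striatum with the sire's treatment. Cck and Vip were higher in all 3 methylphenidate-sired libraries than in any saline-sired library, by 0.80 and 0.92 on the log2 scale, but neither passed the test. The transcripts of the somatostatin class (Sst, Npy and Nos1) and Lhx6 lay within 0.06 of 0 on the log2 scale. All 10 members passed the filter on low counts, and 0 of them had an adjusted p under 0.05 in the edgeR test, where p-values were adjusted by Benjamini and Hochberg's method over 17874 genes. Over all genes tested, 0.0224% were called, 4 genes and all lower. With limma-voom 0 members passed against 0.0224% of all genes, and with DESeq2 0 members passed against 1.25% of the genes it gave an adjusted p, which Cort did not get. At an unadjusted p under 0.05 there were 2 members against 9.02% of all genes, 2 in the higher direction (5.07% of all genes) and 0 in the lower (3.95%).

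The groups did not overlap for the same 2 members, against 14.8% of all genes, 7.84% with higher and 7.01% with lower methylphenidate-sired values. The absolute log2 fold change was under 0.1 in 5 of 10 members (Sst, Npy, Calb1, Nos1 and Lhx6) and in 43.1% of all genes. The median log2 fold change was -0.02 over the 10 members and -0.01 over all genes, with 4 members positive and 6 negative, against 47% positive over all genes.

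**Figure D2:**
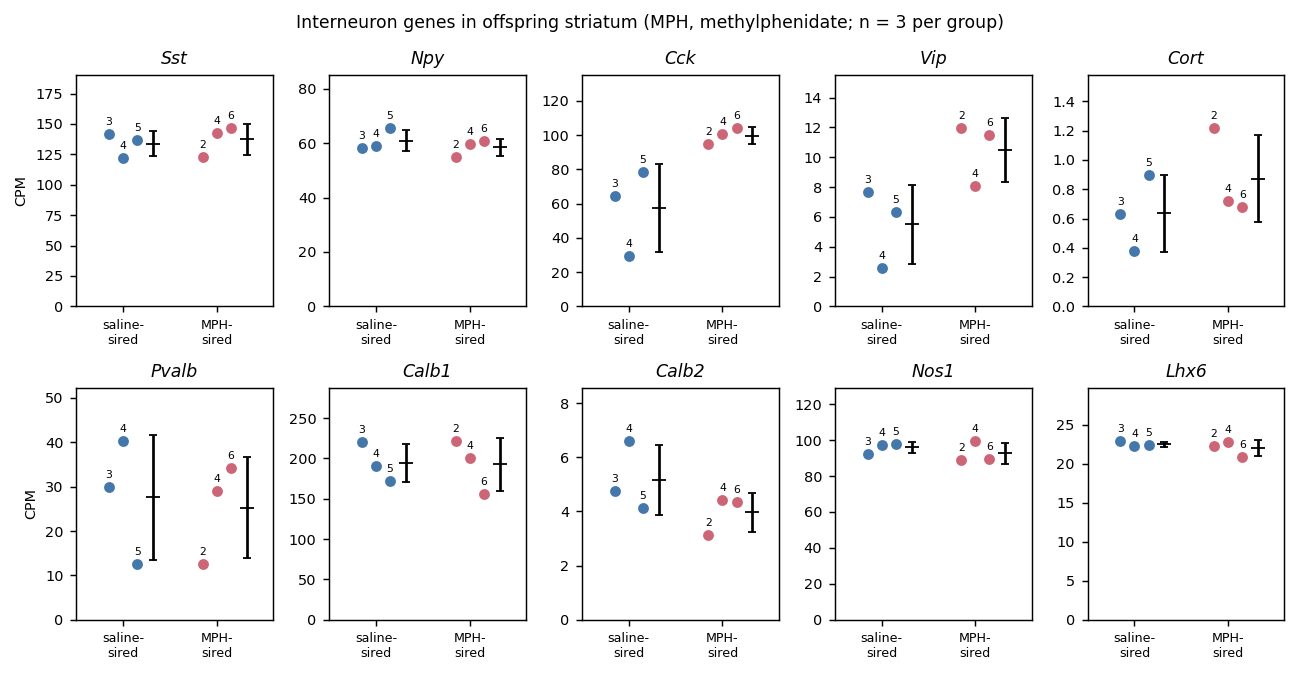
CPM of each member in the 6 libraries, with the library number above each point and the mean and SD (n = 3) in black, on axes that start at 0. Only Cck and Vip have all methylphenidate-sired points above all saline-sired points, and saline-sired library 4 is lowest for both.

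Sst (Gene ID 20604, chromosome 16, 23889573 to 23891342 in mm10) encodes somatostatin, an inhibitory peptide released onto distal dendrites. It was at 142 CPM in saline-sired library 3, 122 CPM in library 4 and 137 CPM in library 5, and at 123, 142 and 147 CPM in methylphenidate-sired libraries 2, 4 and 6. The groups overlapped, with the lowest value in saline-sired library 4 and the highest in methylphenidate-sired library 6. The means were 134 ± 10.3 and 137 ± 12.6 CPM (SD, n = 3), and the log2 fold change was 0.04 (SE 0.09, 95% interval -0.16 to 0.23, edgeR adjusted p = 0.923).

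Npy (Gene ID 109648, chromosome 6, 49822710 to 49829507) encodes neuropeptide Y, which the somatostatin class co-releases. Its level was 58.4, 59.0 and 65.6 CPM after saline siring and 55.0, 59.6 and 61.0 CPM after methylphenidate siring, with overlapping groups. The log2 fold change was -0.06 (SE 0.07, 95% interval -0.23 to 0.11, edgeR adjusted p = 0.845).

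Nos1 (Gene ID 18125, chromosome 5, 117866839 to 117958840) encodes the neuronal nitric oxide synthase, the third marker of that class. It stood at 92.4, 97.3 and 98.1 CPM in saline-sired and at 89.0, 99.3 and 89.4 CPM in the methylphenidate-sired libraries. The values overlapped and the log2 fold change was -0.05 (SE 0.07, 95% interval -0.20 to 0.10, edgeR adjusted p = 0.847). In GENCODE vM21 an exon of Gm26995 overlaps Nos1 on the other strand, and the sources used here do not say whether counting used the strand. A part of the Nos1 counts is therefore uncertain.

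The ratios of these 3 genes were taken within each library. Npy stood at 0.600 to 0.682 of the Nos1 level in CPM across the 6 libraries, a 1.14-fold span. Sst stood at 2.07 to 2.43 times the Npy level, a 1.17-fold span. Against Nos1, Sst stood at 1.25 to 1.64 times the level, a 1.31-fold span and wider than that of either gene alone. The Npy to Nos1 span lay between those of its genes, and the Sst to Npy span was slightly below both of its genes. Whether the 3 genes vary together was not tested. None of the 3 ratios separated the groups.

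Lhx6 (Gene ID 16874, chromosome 2, 36081950 to 36105992) varied least of the members. It stood at 22.9, 22.2 and 22.4 CPM in saline-sired and at 22.3, 22.8 and 20.9 CPM in the methylphenidate-sired libraries, a 1.09-fold span. The log2 fold change was -0.03 (SE 0.08, 95% interval -0.21 to 0.15, edgeR adjusted p = 0.934). An exon of Gm27953 overlaps it on the same strand, so a part of the Lhx6 counts is uncertain as well.

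Cort (Gene ID 12854, chromosome 4, 149125034 to 149126763) encodes cortistatin, a close relative of somatostatin that binds the same receptors. It was read rarely, with 25, 12 and 28 counts in the saline-sired and 40, 23 and 23 in the methylphenidate-sired libraries. Counting alone leaves an exact Poisson 95% interval of 6.20 to 21.0 around the lowest count. Its levels, 0.629, 0.377 and 0.898 CPM against 1.22, 0.720 and 0.681 CPM, overlapped between the groups, and the log2 fold change of 0.46 had an interval from -0.51 to 1.43 (edgeR adjusted p = 0.781). That interval holds both 0 and the fold change of Cck. The Cort value was 0.16 when methylphenidate-sired library 2 was left out, 0.20 when saline-sired library 4 was and 0.79 when saline-sired library 5 was.

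**Figure D3:**
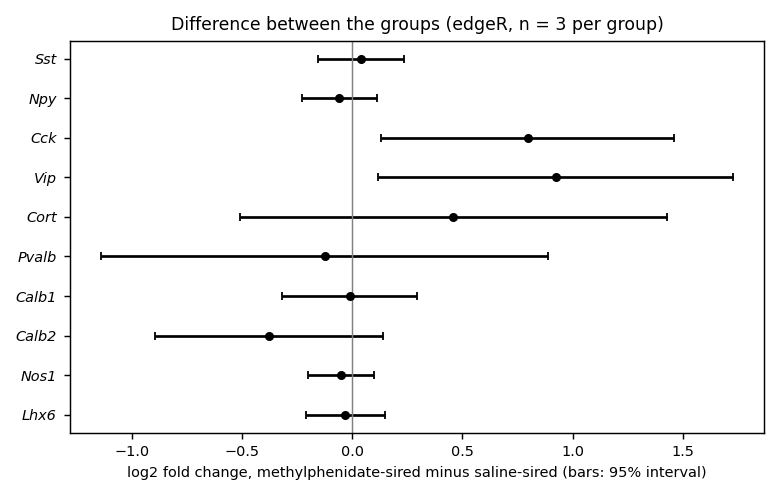
Log2 fold change of each member, methylphenidate-sired minus saline-sired, with its 95% interval from the edgeR fit (n = 3 per group). The intervals of Cck and Vip lie above 0 before adjustment over all genes, and those of Sst, Npy, Nos1 and Lhx6 are the narrowest.

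Cck (Gene ID 12424, chromosome 9, 121489824 to 121495694) encodes cholecystokinin. It was at 64.5 CPM in saline-sired library 3, 29.2 CPM in library 4 and 78.5 CPM in library 5, and at 94.5, 100 and 104 CPM in methylphenidate-sired libraries 2, 4 and 6. The methylphenidate-sired values were close together and above every saline-sired value, and saline-sired library 4 was the lowest. The means were 57.4 ± 25.4 and 99.7 ± 4.84 CPM (SD, n = 3), and the log2 fold change was 0.80 (SE 0.29, 95% interval 0.13 to 1.46, unadjusted p = 0.0246, edgeR adjusted p = 0.488). Without saline-sired library 4 the log2 fold change was 0.48 (edgeR adjusted p = 0.491).

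Vip (Gene ID 22353, chromosome 10, 5639193 to 5647617) encodes vasoactive intestinal polypeptide, a peptide of cortical interneurons that inhibit other interneurons. Its levels were 7.68, 2.54 and 6.32 CPM in the saline-sired and 12.0, 8.04 and 11.5 CPM in the methylphenidate-sired libraries. The groups did not overlap, but saline-sired library 3 came close to methylphenidate-sired library 4. The means were 5.51 ± 2.66 and 10.5 ± 2.14 CPM (SD, n = 3), and the log2 fold change was 0.92 (SE 0.35, 95% interval 0.12 to 1.73, unadjusted p = 0.0292, edgeR adjusted p = 0.493). Without saline-sired library 4 it was 0.58 (edgeR adjusted p = 0.647). When both libraries that lay apart were dropped, the lone saline-sired library 5 was assumed to vary like the other group, and Cck had a log2 fold change of 0.34 and Vip 0.73 (edgeR adjusted p = 0.928 for each). No member passed there.

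Genes listed as markers of cortical excitatory neurons had fold changes in the same direction as these 2 peptides. All 14 of 14 listed markers were detected and had positive fold changes, with a median of 0.86 on the log2 scale, against -0.01 over all genes. Of the 14, 10 had an unadjusted p under 0.05, 0 passed the edgeR test over all genes and 2 passed with DESeq2. Over all genes 9.02% had an unadjusted p under 0.05, and DESeq2 called 1.25% of those it gave an adjusted p. The groups did not overlap in 9 of the 14, with higher methylphenidate-sired values, against 7.84% of all genes. The summed level of the markers was 453 to 948 CPM in the saline-sired and 1133 to 1293 CPM in the methylphenidate-sired libraries. None of the markers was at 0. Slc17a7, the vesicular glutamate transporter of cortical neurons and the listed marker of most counts, not scaled for length, stood at 337, 163 and 438 CPM against 540, 570 and 616 CPM. By lowest p the list was led by Nptx1, a neuronal pentraxin (0.69 on the log2 scale, edgeR adjusted p = 0.376), and Neurod2, a factor of cortical projection neurons (0.95, edgeR adjusted p = 0.452). The fold change of Slc17a7 was 0.88 over all libraries, 0.57 with saline-sired library 4 left out and 0.39 with saline-sired libraries 3 and 4 left out, where Neurod2 had 0.44 and Nptx1 0.50. The order of the 6 libraries from lowest to highest was the same for Cck and Slc17a7. Vip did not follow that order and was highest in methylphenidate-sired library 2. The ratio of Cck to Slc17a7 was 0.192, 0.179 and 0.179 in the saline-sired and 0.175, 0.176 and 0.169 in the methylphenidate-sired libraries. That was a 1.13-fold span where Cck itself spanned 3.57-fold, with every methylphenidate-sired ratio below every saline-sired one. The ratio of Vip to Slc17a7 spanned 1.61-fold, from 0.0141 to 0.0228, with values of both groups mixed.

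With the cortical marker score of each library (the mean log2 CPM of the list) as a covariate, the log2 fold change of Cck was 0.04 (SE 0.12, edgeR adjusted p = 0.989) and that of Vip 0.17 (SE 0.38, edgeR adjusted p = 0.986). The score was -0.33, -1.29 and 0.24 in the saline-sired and 0.38, 0.40 and 0.60 in the methylphenidate-sired libraries. It differs between the groups itself, so the cortical level and the sire's treatment cannot be told apart in this fit. The ratio of Sst to Slc17a7 spanned 3.29-fold. It was 0.420, 0.751 and 0.313 in the saline-sired and 0.228, 0.249 and 0.238 in the methylphenidate-sired libraries. The groups did not overlap in this ratio, with lower methylphenidate-sired values.

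**Figure D4:**
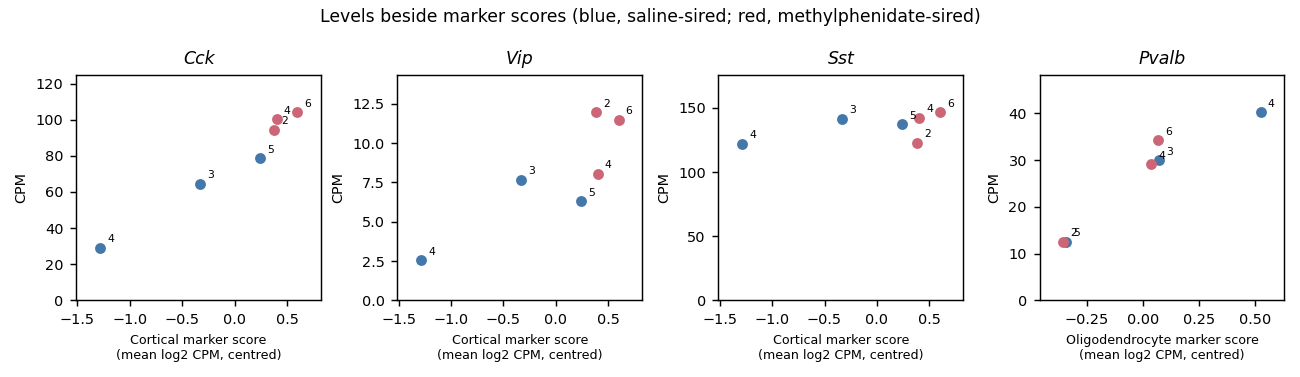
CPM of Cck, Vip and Sst against the cortical marker score, and of Pvalb against the oligodendrocyte marker score, with 1 numbered point per library (blue, saline-sired; red, methylphenidate-sired). Cck climbs with the cortical score from 29.2 to 104 CPM, Sst stays between 122 and 147 CPM, and the Pvalb points of saline-sired library 5 and methylphenidate-sired library 2 lie together at the lower left.

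Among the 10706 genes that averaged 3 or more in log2 CPM, those whose log2 CPM ran most like that of Cck over the 6 libraries were Stx1a (Pearson r = 0.999), Lingo1 (0.998), Slc17a7 (0.997), 1110032F04Rik (0.997) and Rtn4rl2 (0.996). These values describe 6 libraries and carry no test. Stx1a, which encodes a syntaxin of the release machinery, stood at 63.7, 37.4 and 74.2 CPM in saline-sired and at 83.3, 85.2 and 91.2 CPM in the methylphenidate-sired libraries. The nogo receptor partner gene Lingo1 ranged from 95.7 CPM in saline-sired library 4 to 213 CPM in methylphenidate-sired library 6.

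Pvalb (Gene ID 19293, chromosome 15, 78191112 to 78206400) encodes parvalbumin, the calcium buffer of fast-spiking interneurons. It was at 29.9 CPM in saline-sired library 3, 40.2 CPM in library 4 and 12.5 CPM in library 5, and at 12.5, 29.1 and 34.2 CPM in methylphenidate-sired libraries 2, 4 and 6. One library of each group was thus at 12.5 CPM and the other 4 were at 29.1 or above. The log2 fold change of -0.13 had an interval from -1.14 to 0.89 (SE 0.44, edgeR adjusted p = 0.959). It turned to 0.25 when saline-sired library 4 was left out and to 0.21 when methylphenidate-sired library 2 was. Leaving out saline-sired library 5 gave -0.46, and leaving out methylphenidate-sired library 6 gave -0.41.

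The same 2 libraries, saline-sired 5 and methylphenidate-sired 2, were lowest in the oligodendrocyte score (-0.35 and -0.36, against 0.03 to 0.53 in the other 4). They were also the lowest pair in the scores of globus pallidus and septum (-0.19 and -0.17), thalamus (-0.30 and -0.23), interneuron transcription factors (-0.16 and -0.19), GABAergic genes (-0.083 and -0.11), choroid plexus (-1.48 and -1.46) and astrocytes (-0.079 and -0.080), so the pattern was not limited to 1 list. Of the 8 pallidal and septal markers, 4 are also on the list of interneuron transcription factors. Mbp, a myelin gene, had 3970, 5803 and 3079 CPM in the saline-sired and 3053, 3969 and 4212 CPM in the methylphenidate-sired libraries. Pallidal neurons also contain parvalbumin, and their part in the Pvalb values was not tested.

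Calb1 (Gene ID 12307, chromosome 4, 15881264 to 15906709) encodes calbindin-D28k. Its levels were 220, 191 and 172 CPM in the saline-sired and 221, 200 and 156 CPM in the methylphenidate-sired libraries. The groups covered nearly the same range, and the log2 fold change was -0.01 (SE 0.13, 95% interval -0.32 to 0.29, edgeR adjusted p = 0.988). Calb2 (Gene ID 12308, chromosome 8, 110142526 to 110168212) encodes calretinin. It stood at 4.76, 6.59 and 4.14 CPM in saline-sired and at 3.14, 4.41 and 4.35 CPM in the methylphenidate-sired libraries. The lowest value was in methylphenidate-sired library 2 and the highest in saline-sired library 4, but the groups overlapped, and the log2 fold change of -0.38 (SE 0.23, 95% interval -0.90 to 0.14) did not pass the test (edgeR adjusted p = 0.657). It was -0.17 with saline-sired library 4 left out and -0.22 with methylphenidate-sired library 2 left out.

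Receptors of the member peptides were read from a list of 13 genes, of which 12 passed the filter and Npy4r had 0 counts in every library. None passed the edgeR test over all genes, and DESeq2 called 2, Sstr1 (DESeq2 adjusted p = 0.00129) and Sstr2 (DESeq2 adjusted p = 0.0448). At an unadjusted p under 0.05 there were 4. These 4 were the somatostatin receptor genes Sstr1, Sstr2, Sstr3 and Sstr4, which encode inhibitory G protein-coupled receptors for somatostatin and cortistatin. In each of the 4 the groups did not overlap, with the methylphenidate-sired values higher. The 4 were picked by their p, so this is not a separate result. Over all genes, 9.02% had an unadjusted p under 0.05 and 7.84% had no overlap with higher methylphenidate-sired values. DESeq2 called 1.25% of the genes it gave an adjusted p. These shares stand beside the counts of the lists below as well. The median log2 fold change over the 12 genes was 0.20, with 7 positive.

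Sstr1 stood at 11.4, 7.47 and 10.2 CPM in saline-sired and at 16.7, 16.0 and 18.9 CPM in the methylphenidate-sired libraries. Its log2 fold change was 0.83 (SE 0.16, unadjusted p = 0.000777, edgeR adjusted p = 0.362), and 0.67 to 0.96 without each library in turn. Sstr3 was at 7.88, 4.71 and 6.67 CPM against 8.83, 10.9 and 12.5 CPM (0.74, SE 0.21, edgeR adjusted p = 0.452). Sstr2 was at 16.5, 12.7 and 20.5 CPM against 21.2, 33.2 and 25.8 CPM (0.69, SE 0.20, edgeR adjusted p = 0.452).

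Sstr4 was at 4.56, 5.46 and 6.16 CPM against 7.40, 7.36 and 6.54 CPM (0.40, SE 0.15, edgeR adjusted p = 0.498). The fifth receptor gene, Sstr5, overlapped between the groups (-0.15, SE 0.25, edgeR adjusted p = 0.887). With the cortical marker score as a covariate the log2 fold changes of Sstr1 to Sstr4 were 0.52, 0.32, 0.37 and 0.35 (edgeR adjusted p = 0.983 for each), where the value of Cck was 0.04. With the medium spiny neuron score in its place they were 0.41, 0.59, 0.05 and 0.71. That score was 0.07, 0.12 and 0.10 in the saline-sired and -0.03, -0.06 and -0.19 in the methylphenidate-sired libraries. It differs between the groups, as the cortical score does, so neither fit can tell the score from the sire's treatment. With saline-sired libraries 3 and 4 left out the log2 fold changes of Sstr1 to Sstr4 were 0.76, 0.38, 0.69 and 0.20. The cholecystokinin receptor gene Cckbr, the main one of the brain, was at 19.7, 11.6 and 21.8 CPM against 21.1, 26.3 and 24.3 CPM (0.43, SE 0.21, edgeR adjusted p = 0.589). Its fold change was -0.075 with the cortical marker score as a covariate.

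**Figure D5:**
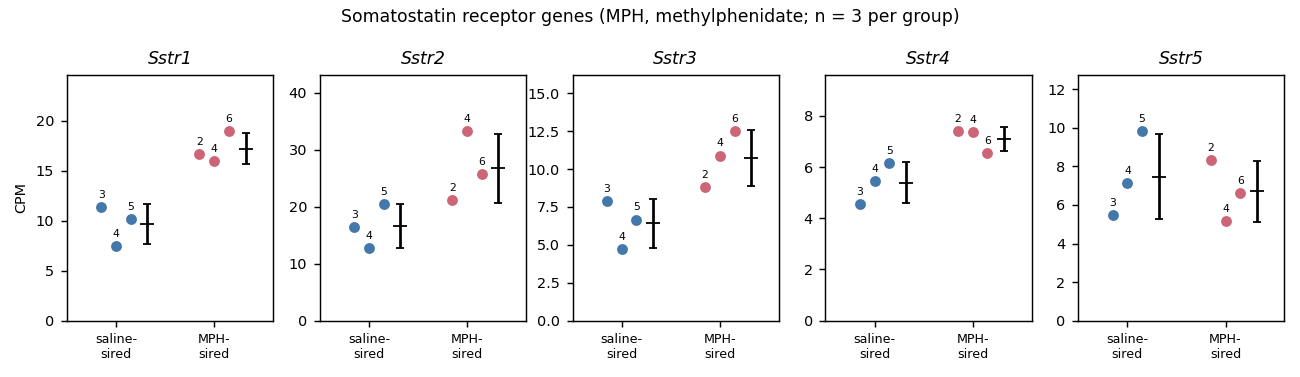
CPM of the 5 somatostatin receptor genes in the 6 libraries, with the library number above each point and the mean and SD (n = 3) in black. For Sstr1 to Sstr4 every methylphenidate-sired point lies above every saline-sired point, and for Sstr5 the groups overlap.

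Among 10 genes of nitric oxide signalling, 7 had positive and 3 negative fold changes (median 0.08), 0 passed the edgeR test, 1 had an unadjusted p under 0.05 and DESeq2 called that 1. It was Nos1ap, which encodes an adaptor protein that binds the synthase. Nos1ap stood at 123, 129 and 138 CPM in saline-sired and at 160, 153 and 166 CPM in the methylphenidate-sired libraries. All methylphenidate-sired values were higher. On the log2 scale the difference was 0.30 (SE 0.06, edgeR adjusted p = 0.376, DESeq2 adjusted p = 0.0202).

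Of 17 transcription factor genes of interneurons, 7 were positive and 10 negative (median -0.13), 0 passed the edgeR test, 2 had an unadjusted p under 0.05 and DESeq2 called 1. Satb1, a chromatin organizer needed by somatostatin interneurons and made by cortical neurons too, was at 41.3, 30.5 and 43.9 CPM against 49.6, 58.3 and 70.8 CPM. Its log2 fold change was 0.63 (SE 0.16, edgeR adjusted p = 0.420, DESeq2 adjusted p = 0.0132) and 0.28 with the cortical marker score as a covariate. With the medium spiny neuron score as a covariate it was 0.0005 (SE 0.25). That score differs between the groups itself, so this fit cannot tell it from the sire's treatment.

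Of 20 other markers of interneuron classes, 11 were positive and 9 negative (median 0.05), and 0 passed with edgeR or DESeq2, with 3 at an unadjusted p under 0.05. Erbb4, the neuregulin receptor of parvalbumin cells and of other interneurons, was at 60.3, 57.6 and 67.7 CPM against 72.7, 72.7 and 76.5 CPM (0.26, SE 0.07, edgeR adjusted p = 0.452). Its fold change was 0.12 with the cortical marker score as a covariate and 0.13 with saline-sired libraries 3 and 4 left out. Chat, the acetylcholine-synthesizing enzyme of cholinergic interneurons, was at 19.4, 25.3 and 19.5 CPM against 15.9, 17.6 and 17.6 CPM (-0.33, SE 0.12, edgeR adjusted p = 0.491). Its fold change was -0.19 with saline-sired library 4 left out and -0.089 with the cortical marker score as a covariate. The 4 genes of GABA synthesis and transport had 1 positive and 3 negative values (median -0.05), with 0 past the test and 0 at an unadjusted p under 0.05 or called by DESeq2. Gad1, a GABA-synthesizing enzyme, was at 591, 676 and 549 CPM against 514, 596 and 605 CPM (-0.08, SE 0.10, edgeR adjusted p = 0.832), and the vesicular GABA transporter gene Slc32a1 had -0.18 (SE 0.09, edgeR adjusted p = 0.600).

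The medium spiny neuron list summed to 9834 to 10679 CPM in the saline-sired and 8429 to 9395 CPM in the methylphenidate-sired libraries. No other tissue was compared. Fold changes were negative in 14 of 14 (median -0.20), with 0 past the edgeR test, 9 at an unadjusted p under 0.05 and 3 called by DESeq2. In 10 of the 14 the groups did not overlap, with lower methylphenidate-sired values, against 7.01% of all genes. The list's lowest p-values were those of Scn4b, a sodium channel subunit (-0.29, edgeR adjusted p = 0.419), and Tac1, the substance P gene (-0.32, edgeR adjusted p = 0.420). Its gene of most counts, not scaled for length, was Pde10a, a phosphodiesterase (-0.16, edgeR adjusted p = 0.588). Immediate early genes were positive in 12 of 12 (median 0.66), with 0 past the edgeR or DESeq2 test and 4 at an unadjusted p under 0.05. The lists for globus pallidus and septum, thalamus, young neurons of the ventricular wall, astrocytes, oligodendrocytes and microglia had medians of -0.06, 0.02, -0.16, 0.006, -0.21 and -0.09 with 0 genes at an unadjusted p under 0.05, and ependyma had -0.70 with 2 (0 called by edgeR or DESeq2). With the medium spiny neuron score, which differs between the groups, as a covariate Cck had 0.43 and Vip 0.40. With the choroid plexus score they had 0.65 and 0.97. The part of the other lists in this paragraph in the results above was not tested. Y-linked transcripts summed to 180 CPM in saline-sired library 4, 176 CPM in methylphenidate-sired library 4 and at most 0.213 CPM elsewhere. These 2 libraries were thus the males, 1 per group as in the labels. Saline-sired library 4 was also the lowest for Cck and Vip. With the level of Y-linked transcripts as a covariate Cck had 0.90 and Vip 1.03 (0 members past the test).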

How the data were processed

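Per the submitters' processing notes, reads were processed with bcl2fastq 2.20.0, Trimmomatic, HISAT2 2.1.0 and StringTie 2.1.3b on mm10; the sources used here do not give the order, the settings, the strandedness or how multi-mapped reads were counted. Values are raw, not normalized, read counts per gene as deposited by the authors. A further 12 columns of per-sample values were not used. Column numbers differ as a set from the labelled animals, so columns were tied to groups, and the planned sex covariate was replaced by the level of Y-linked transcripts.

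Counts were tested over all genes with edgeR 4.0.16 (R 4.3.3): TMM scaling, filterByExpr, quasi-likelihood F test, Benjamini-Hochberg at 0.05. Each SE is the absolute log2 fold change over the square root of F. CPM values use TMM-scaled library sizes. DESeq2 1.42.0 and limma-voom (limma 3.58.1) were alternatives, as were other scalings, filters, marker scores as covariates and each library left out. Scores are means of log2 CPM (prior count 2), centred. Scripts were tested on simulated data. Every pair of libraries differed by more than sampling noise (chi-square per gene at least 7.98). Lengths are those of the longest GENCODE vM21 transcript paired with a RefSeq transcript of the table, and positions are from RefSeq, GRCm38.p6, the assembly of mm10.

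Members and lists were chosen with earlier results of these data known. Named are all members, per list the genes past the test or else the 2 of lowest p, the most abundant cortical marker, and the 5 genes most like the member of lowest p. Sstr2, Sstr4, Sstr5, Cckbr and Mbp were named after their values were seen. For other cell type lists only sums, scores or counts are given. Some genes that this rule selects are not reported here. Intervals on single counts cover counting error only.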

Additional observations from a re-analysis of the deposited data

How the results depend on the processing

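In all 18 alternatives, 0 members passed the test, as in the fit reported. The number of genes past the test over the whole table was 4, and it was 180 with DESeq2, 1 with the cortical marker score, 0 with the medium spiny neuron score, 2 with the choroid plexus score and 2 with the Y-linked score as a covariate. It was 1 to 4 without each library in turn, lowest with methylphenidate-sired library 6 left out, and 0 without saline-sired libraries 3 and 4, an alternative chosen after seeing the data. The members' median log2 fold change was 0.089 with the choroid plexus score as a covariate. Without each library in turn it ran from -0.04 to 0.06, with 4 to 5 members positive.

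With the cortical marker score as a covariate Cck was 0.04 (SE 0.12) and Vip 0.17 (SE 0.38). Without each library in turn Cck ran from 0.48 to 1.10 and Vip from 0.58 to 1.24. Other values changed sign. With the cortical marker score as a covariate these log2 fold changes were -0.086 for Sst, -0.11 for Cort, 0.81 for Pvalb, 0.088 for Calb1, 0.026 for Calb2, 0.085 for Gad1 and -0.075 for Cckbr. With the medium spiny neuron score they were -0.24 for Sst, 0.39 for Calb1, 0.038 for Nos1, 0.073 for Lhx6 and 0.14 for Pde10a. With the choroid plexus score they were 0.61 for Pvalb and 0.11 for Calb1. Without saline-sired libraries 3 and 4 they were 1.01 for Pvalb, 0.16 for Calb1, -0.042 for Cort and 0.058 for Gad1. Without each library in turn Sst ran from -0.022 to 0.13, Npy from -0.094 to 0.0083, Lhx6 from -0.046 to 0.0045, Pvalb from -0.46 to 0.25, Calb1 from -0.11 to 0.12 and Gad1 from -0.14 to 0.0044. The cause was not tested. Other scalings and filters changed no member's sign, and the filter at 1 CPM left out Cort. No paired analysis was possible because the columns of the groups share only 1 number. Precision is limited by 3 libraries per group and, for Cort at 12 to 40 counts, by counting as well.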
